A study of Homo sapiens with 12 samples.

Results

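The Hippo pathway genes examined were the 2 transcriptional coactivators YAP1 and WWTR1 (which encodes TAZ), the kinases LATS1 and LATS2, the angiomotin family members AMOTL1 and AMOTL2, the LIM protein AJUBA, the DNA-binding partners TEAD1 and TEAD4, and the YAP target ANKRD1. They were chosen by name, as the 10 rows of the deposited count table that carry these symbols, of 56269 genes in all, and all 10 passed the filter on low counts that left 16069 genes for testing. RNA came from HEYA8, an established ovarian cancer cell line, in 12 libraries of 4 groups with 3 libraries each. One group carried a control vector, and the others carried S534A (named CS-BG in the study), S545A (named HS-BG) or ∆GAG-BG. BG is betaglycan, the type III TGF-β receptor encoded by TGFBR3. S534A and S545A each name the serine that was replaced by alanine, which leaves the other serine as the single site for a glycosaminoglycan chain, and ∆GAG-BG carries both changes. The constructs were delivered by a dTomato lentivirus on top of the gene that HEYA8 cells already carry, and infected cells were sorted for dTomato, so each group is a stable pool of sorted cells. All libraries were labelled as resting state in RPMI medium with serum, and no group received a ligand. S545A library 3 was titled S545S-3 and was grouped by its genotype label, S545A. No library of cells expressing full-length betaglycan was analysed here.

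In the Hippo pathway, the MST kinases activate LATS1 and LATS2, which phosphorylate YAP and TAZ so that they are held in the cytoplasm or degraded. Unphosphorylated YAP and TAZ enter the nucleus and act through TEAD factors, which bind DNA at a motif with the core CATTCC. Angiomotins bind YAP and can retain it at junctions or actin, and AJUBA family proteins bind LATS kinases and restrain them. Several genes of the pathway, among them AMOTL2, LATS2, AJUBA, ANKRD1, CTGF and CYR61, are known in other systems as YAP targets. The activity of YAP and TAZ is set largely by phosphorylation and location of the proteins, which RNA counts do not measure.

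The TEAD core was searched on both strands, as CATTCC or its reverse complement GGAATG, in the RefSeq promoters of build GRCh38.p14, each a window of 300 bases with 250 before and 50 after the annotated start. RefSeq windows were matched for 8 of the 10 genes, 12 windows in all, and 5 of the 12 (41.7%) held the core, against 14% of 35116 promoters. The matches of the 10 genes are shown with their flanks so that the letters around the core can be read side by side. Those of CTGF, where the same letters occur 3 times, are shown for comparison. Capitals mark the core, and each run reads in the direction of transcription.
ANKRD1, distal match: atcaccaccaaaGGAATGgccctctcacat
ANKRD1, proximal match: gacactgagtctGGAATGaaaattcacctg
AMOTL2: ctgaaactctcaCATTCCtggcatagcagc
AJUBA: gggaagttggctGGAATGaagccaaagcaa
LATS2: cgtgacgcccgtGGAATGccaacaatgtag
YAP1: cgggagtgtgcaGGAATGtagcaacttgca
CTGF, distal match: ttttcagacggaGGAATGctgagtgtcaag
CTGF, proximal pair: ggaaggtggggaGGAATGcgaGGAATGtcc

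Counted from the RefSeq start, the core lay at -220 to -215 and at -128 to -123 for ANKRD1, at -69 to -64 for AMOTL2, at -59 to -54 for AJUBA, at -162 to -157 for YAP1 and, within the transcript, at 10 to 15 for LATS2. The printed stretches are chr10:90921290-90921319 and chr10:90921198-90921227 (ANKRD1), chr3:134374499-134374528 (AMOTL2), chr14:22976884-22976913 (AJUBA) and chr13:21061560-21061589 (LATS2), all on the minus strand, and chr11:102110273-102110302 on the plus strand (YAP1). The CTGF stretches are chr6:131951524-131951553 and chr6:131951459-131951488 on the minus strand. Where a gene has more than 1 RefSeq start, as AMOTL2 and AJUBA do, the match lies before the downstream start, and GENCODE release 29 annotates the AMOTL2 stretch, the AJUBA stretch and the proximal ANKRD1 stretch as untranslated exon of longer transcripts. The windows of WWTR1, LATS1 and AMOTL1 did not hold these letters. A match describes the sequence and does not show binding.

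The libraries held 16410001 to 29504297 counts. TGFBR3, the gene of the constructs, was at 413 to 476 CPM (the count of a gene relative to all counts of its library, with library sizes scaled by the TMM method) in S534A and 520 to 574 in S545A. It was 260, 20.3 and 21.4 CPM in the libraries labelled ∆GAG-BG and 15.9, 259 and 259 CPM in those labelled control vector, so libraries 2 and 3 of these groups go against their labels. In every group but S534A, libraries 2 and 3 were nearly identical: chi-square divided by its degrees of freedom was 1.40 to 1.95 for them and 16.5 to 74.8 for the other pairs within a group. They differed by more than sampling noise and were kept as separate libraries, so p-values measure the spread between libraries, which may in part be technical. Of the ovarian carcinoma markers, PAX8 was at 193 to 295 CPM and WT1 at 3.42 to 8.38 CPM. SOX17 had 0 to 7 counts per library, and MUC16 and EMX2 had none. Keratins KRT7, KRT8 and KRT18 and the mesenchymal gene VIM were high. The other epithelial markers were low: EPCAM was at 0.367 to 1.77 CPM, KRT19 at 0.141 to 0.789 CPM, and the cadherin CDH1 had no counts. Leukocyte markers summed to at most 0.189 CPM, and of the fibroblast markers DCN and LUM had no counts while PDGFRB had 21 to 146 counts (0.701 to 5.04 CPM). The endothelial list summed to 171 to 445 CPM, nearly all of it CDH5.

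Levels were divided by the annotated exon length of each gene to set genes side by side. The transcripts expressed can be shorter, so ranks and ratios between genes depend on the annotation. Per kilobase of exon, AMOTL2 was the most abundant of the 10, at a mean of 94.5 CPM per kb over the 12 libraries (range 70.0 to 122). YAP1 (31.9, range 28.1 to 34.1), TEAD4 (27.9, range 24.4 to 32.6), TEAD1 (26.1, range 20.4 to 30.8), AJUBA (25.0, range 11.4 to 37.2) and LATS2 (22.2, range 16.8 to 25.4) formed a middle tier in which each gene overlapped the next. AMOTL1 (11.0, range 9.82 to 13.4) and WWTR1 (9.14, range 8.43 to 9.99) followed with ranges that also overlapped, then LATS1 (5.52, range 5.09 to 6.16). ANKRD1 was lowest at 1.79 (range 0.629 to 3.35), with 33 to 194 counts per library. The same paralog led in all 12 libraries for 3 of the pairs. AMOTL2 was 5.24 to 12.2 times AMOTL1, LATS2 was 3.19 to 4.90 times LATS1 and YAP1 was 3.12 to 3.91 times WWTR1, all per kilobase. TEAD1 and TEAD4 did not keep an order per kilobase, since their ratio ran from 0.696 to 1.26. Before division by length, TEAD1 (210 to 316 CPM) was above TEAD4 (55.4 to 74.0 CPM). AMOT, the founding angiomotin, had 0 to 4 counts, and TEAD2 (6.89 CPM per kb) and TEAD3 (5.95 CPM per kb) were below TEAD1 and TEAD4.

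**Figure D1:**
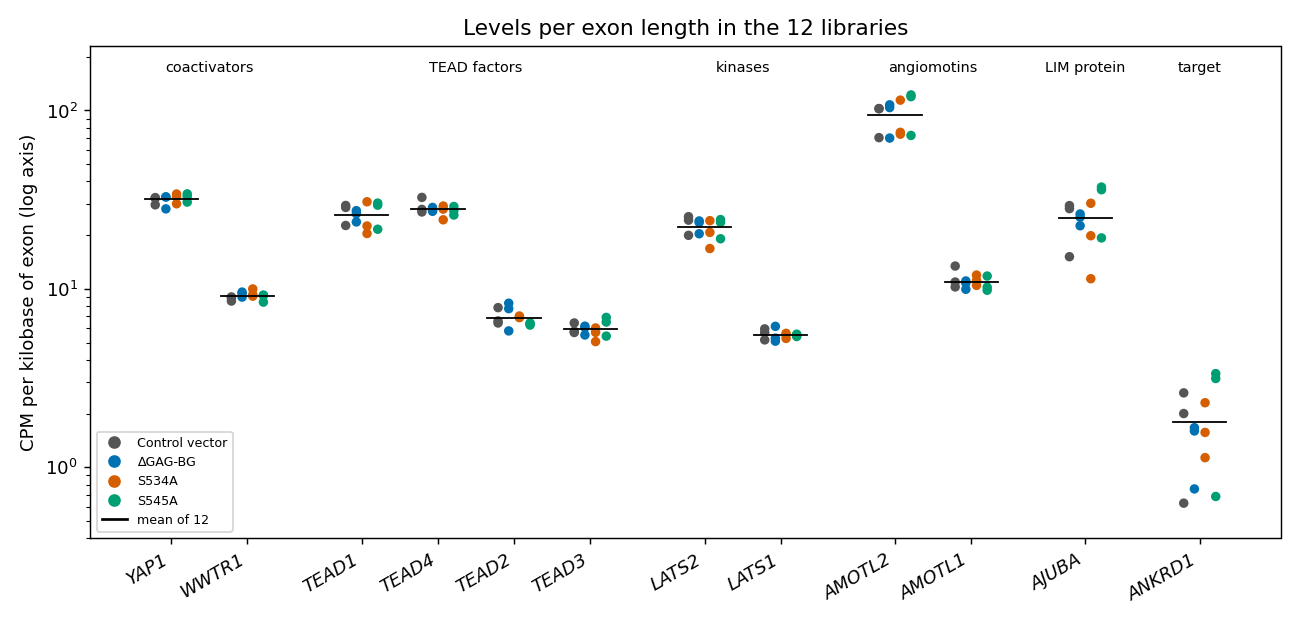
Level of each gene in CPM per kilobase of exon (log axis), with 1 point for each of the 12 libraries coloured by group and a line at the mean of the 12. AMOTL2 lies above the other genes at a mean of 94.5, ANKRD1 below them at 1.79, and the S534A and control vector points of WWTR1 are the 1 pair of groups among the 10 genes that do not overlap.

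YAP1 and WWTR1, the coactivators, were the steadiest genes of the set together with LATS1. YAP1 (chr11:102110461-102233423, plus strand) was at 186, 205 and 203 CPM in control vector libraries 1, 2 and 3 and at 177, 206 and 206 CPM in the ∆GAG-BG libraries. It was at 208, 189 and 214 CPM in S534A and at 193, 215 and 207 CPM in S545A. All groups overlapped, and the means ran only from 196 ± 17.0 CPM (SD, n = 3) in ∆GAG-BG to 205 ± 10.9 (SD, n = 3) in S545A. In a bulk sample, a change in the RNA of every cell and a change in the share of cells that carry it cannot be told apart.

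WWTR1 (chr3:149517235-149736714, minus strand) was at 75.8, 75.0 and 71.9 CPM in control vector, 75.6, 80.7 and 79.3 in ∆GAG-BG, 76.6, 78.1 and 84.0 in S534A and 77.6, 77.3 and 70.9 in S545A. The 3 S534A libraries all lay above the 3 control vector libraries. The difference was small, 0.10 on the log2 scale (standard error 0.0732, unadjusted p = 0.197 by edgeR's quasi-likelihood test), and the two-sided exact permutation test gave p = 0.1, the smallest that 3 against 3 libraries allow. In that comparison 7.65% of the 16069 genes tested had groups that did not overlap.

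The TEAD factors carry the DNA-binding domain that YAP and TAZ lack. TEAD1 (chr11:12674591-12944483, plus strand) was at 233, 294 and 302 CPM in control vector, 244, 271 and 282 in ∆GAG-BG, 231, 210 and 316 in S534A and 222, 311 and 303 in S545A. The lowest and the highest of the 12 values were both S534A libraries, libraries 2 and 3. TEAD4 (chr12:2959330-3040673, plus strand) was at 74.0, 63.4 and 61.3 CPM in control vector, 65.0, 62.6 and 61.8 in ∆GAG-BG, 66.2, 63.6 and 55.4 in S534A and 65.8, 62.5 and 58.9 in S545A. In contrast to TEAD1, its highest value was in control vector library 1 and its lowest in S534A library 3.

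The LATS kinases are the direct YAP kinases. LATS1 (chr6:149658153-149718256, minus strand) stayed within 44.0 to 53.3 CPM, with both ends of that range in ∆GAG-BG, and its group means differed by at most 0.0326 on the log2 scale. LATS2 (chr13:20973032-21061547, minus strand) varied more. It was at 111, 142 and 135 CPM in control vector, 114, 132 and 134 in ∆GAG-BG, 116, 93.9 and 135 in S534A and 107, 132 and 136 in S545A. Library 1 of every group and S534A library 2 were at 93.9 to 116 CPM, and the other libraries were at 132 to 142 CPM.

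Among the angiomotins, AMOTL2 (chr3:134355874-134375479, minus strand) fell into the same sets of libraries. It was at 421, 613 and 612 CPM in control vector, 419, 621 and 644 in ∆GAG-BG, 451, 441 and 684 in S534A and 434, 731 and 715 in S545A. Group means were 549 ± 110 CPM in control vector, 561 ± 124 in ∆GAG-BG, 525 ± 137 in S534A and 627 ± 167 in S545A (SD, n = 3 each), so that every neighbouring pair of means differed by less than either SD. TGFBR3 did not follow these sets in every group. In control vector, library 1 was lowest for both AMOTL2 (421 CPM) and TGFBR3 (15.9 CPM). In ∆GAG-BG and S545A, library 1 had the least AMOTL2 (419 and 434 CPM) and the most TGFBR3 (260 and 574 CPM) of its group. A link between the genes was not tested. AMOTL1 (chr11:94706431-94876753, plus strand) was at 135, 103 and 110 CPM in control vector, 111, 99.8 and 108 in ∆GAG-BG, 120, 105 and 112 in S534A and 118, 103 and 98.6 in S545A. Control vector library 1 had the most AMOTL1 and, of the 12 libraries, the lowest ratio of AMOTL2 to AMOTL1.

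AJUBA (chr14:22971174-22982642, minus strand) ranged 3.26-fold over the libraries, more than 96.9% of the genes tested on the log2 scale. It was at 90.5, 175 and 168 CPM in control vector, 135, 157 and 151 in ∆GAG-BG, 119, 68.1 and 181 in S534A and 115, 222 and 215 in S545A. Its lowest value was in S534A library 2 and its highest in S545A libraries 2 and 3, and each group overlapped every other. S545A against S534A gave the smallest p of any of the 10 genes in any comparison, at 0.59 on the log2 scale (standard error 0.351, unadjusted p = 0.119, adjusted p = 0.702, edgeR's quasi-likelihood test). Without S534A library 3 that log2 fold change was 0.98 (unadjusted p = 0.0140, adjusted p = 0.305), without S545A library 1 it was 0.84 (unadjusted p = 0.0311), and without S534A library 2 it was 0.31. With libraries 2 and 3 of the near-identical pairs summed it was 0.45 (unadjusted p = 0.319).

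ANKRD1 (chr10:90912096-90921276, minus strand) encodes a nuclear ankyrin repeat protein and is widely read as a YAP target. It was at 1.25, 3.96 and 5.17 CPM in control vector, 1.5, 3.30 and 3.16 in ∆GAG-BG, 2.24, 3.10 and 4.55 in S534A and 1.36, 6.22 and 6.63 in S545A. Its 5.32-fold range exceeded that of 98.4% of the genes tested on the log2 scale, and library 1 was the lowest of its group in all 4 groups. The second lowest of the 12 values and the 2 highest were all S545A libraries. Against the ∆GAG-BG libraries, S545A showed a log2 fold change of 0.83 (standard error 0.599, unadjusted p = 0.190 by edgeR), which was 1.28 without S545A library 1 (unadjusted p = 0.0250, adjusted p = 1), 0.73 with the near-identical libraries summed (unadjusted p = 0.373) and 0.70 with the replicate number as a block (unadjusted p = 0.0377, adjusted p = 1).

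**Figure D2:**
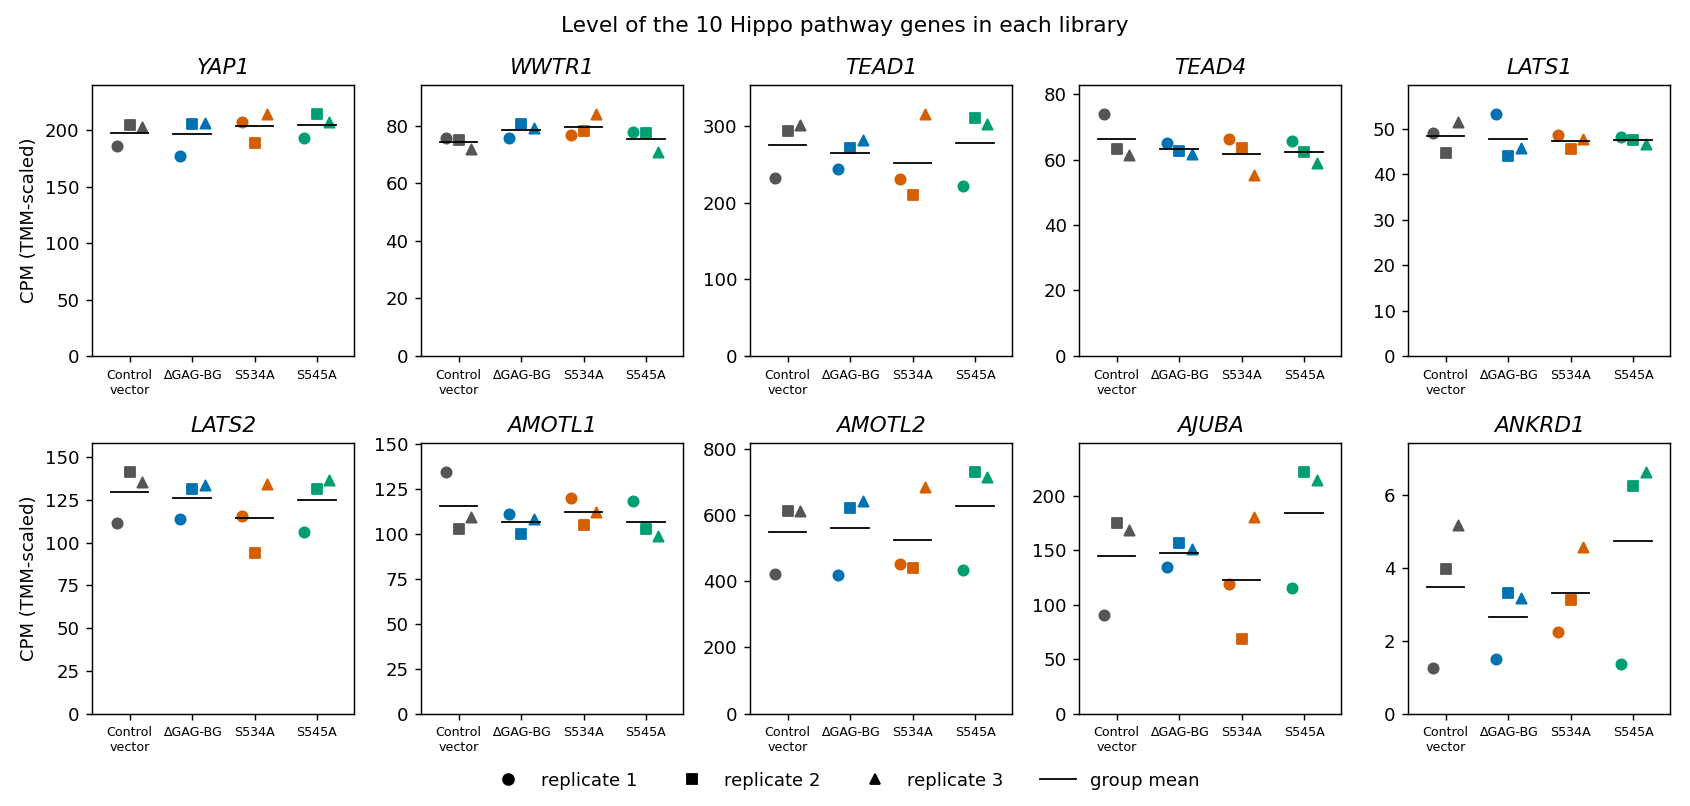
Level of each of the 10 genes in CPM on TMM-scaled library sizes, with 1 point per library (circle, square and triangle for replicates 1, 2 and 3) and a line at the group mean. AMOTL2, TEAD1 and LATS2 are low in replicate 1 of each group and in S534A replicate 2, ANKRD1 and AJUBA spread most within groups, and YAP1, WWTR1 and LATS1 stay within a range of 1.21-fold or less.

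Each of the 6 comparisons between groups was then read across the 10 genes, with p-values adjusted over all 16069 genes tested. The comparisons share libraries and are not independent of each other. None of the 10 genes passed an adjusted p of 0.05 in any comparison by edgeR, DESeq2 or limma-voom. In the fits of all 12 libraries without a block, none passed an unadjusted p of 0.05 with any of these tools. The share of all genes tested that passed an unadjusted p of 0.05 by edgeR was 0.871% for ∆GAG-BG against control vector, 3.45% for S534A against control vector, 1.05% for S545A against control vector, 2.99% for S534A against ∆GAG-BG, 1.1% for S545A against ∆GAG-BG and 4.78% for S545A against S534A. These shares turned on single libraries. With 1 library left out they ran from 0.817% to 2.49% (without control vector library 3 and ∆GAG-BG library 1) for ∆GAG-BG against control vector, from 1.27% to 11.7% (without S534A libraries 2 and 3) for S534A against control vector and from 0.627% to 2.64% (without S545A libraries 2 and 1) for S545A against control vector. They ran from 1.92% to 10.8% (without S534A libraries 2 and 3) for S534A against ∆GAG-BG, from 0.729% to 5.55% (without S545A library 2 and ∆GAG-BG library 1) for S545A against ∆GAG-BG and from 1.68% to 15.8% (without S545A library 3 and S534A library 3) for S545A against S534A. With the filter on low counts, no gene tested passed an adjusted p of 0.05 by edgeR in any of the 6 comparisons. This held with all libraries and with 1 left out. The test of any difference among the 4 groups gave the 10 genes p-values from 0.438 for AJUBA to 0.979 for LATS1, all with an adjusted p of 1. In that test, 1.55% of all genes tested passed an unadjusted p of 0.05 and 1 gene passed an adjusted p of 0.05.

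WWTR1 in S534A against control vector was the 1 case in which the libraries of both groups did not overlap. The share of all genes tested without overlap was 4.87% for ∆GAG-BG against control vector, 8.82% for S545A against control vector, 5.66% for S534A against ∆GAG-BG, 5.05% for S545A against ∆GAG-BG and 10.1% for S545A against S534A, and none of the 10 genes was among them. The median log2 fold change of the 10 genes lay between -0.0726 (S534A against control vector) and 0.0693 (S545A against S534A), beside medians from -0.00657 to 0.00776 for all genes tested. Precision differed by gene. Standard errors on the log2 scale were 0.0732 to 0.0952 for WWTR1, YAP1, LATS1 and TEAD4, 0.111 to 0.169 for AMOTL1, LATS2 and TEAD1, 0.250 for AMOTL2, 0.350 to 0.351 for AJUBA and 0.585 to 0.610 for ANKRD1, so a change of a given size was less detectable in the last 3 than in the first 4.

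**Figure D3:**
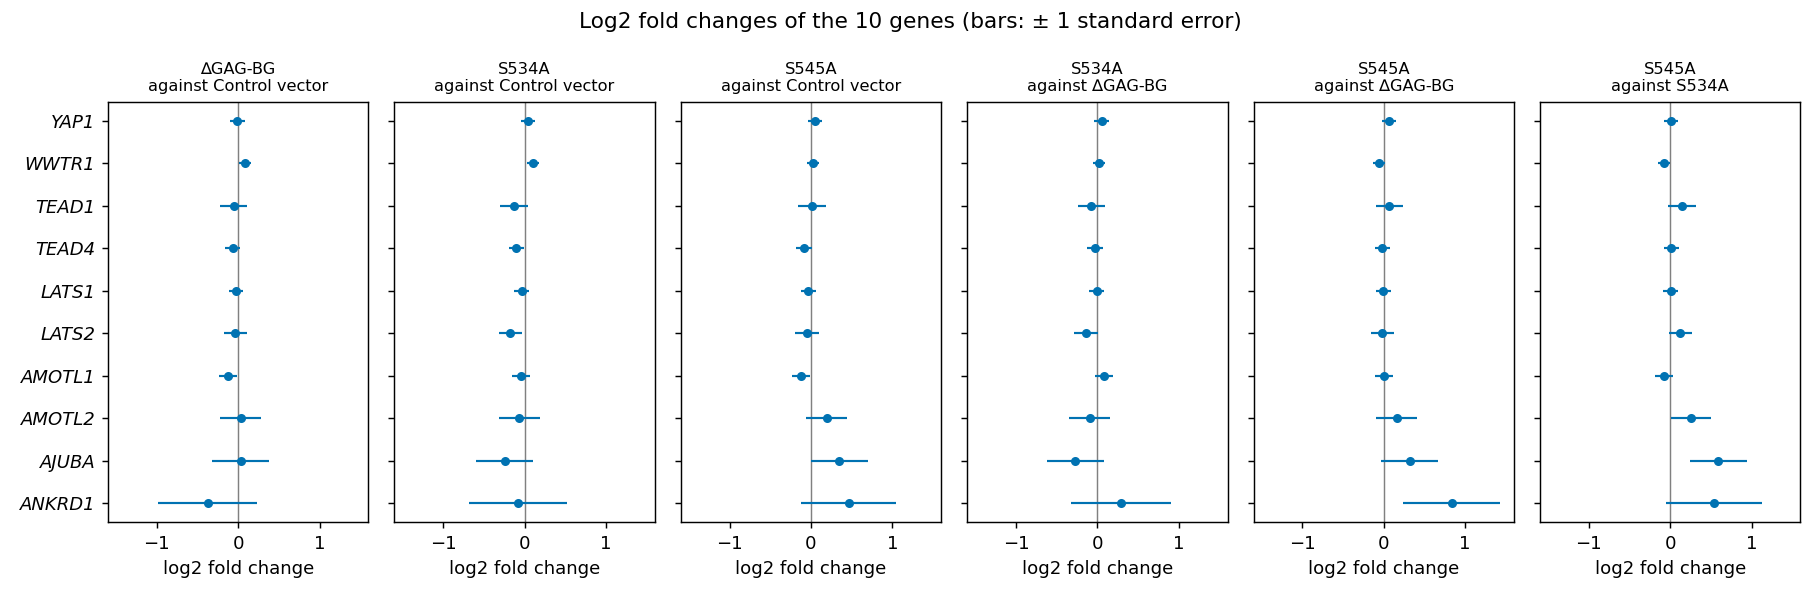
Log2 fold change of each gene (points, bars of ± 1 standard error from edgeR) in the 6 comparisons between groups, with a line at 0. No gene passed an unadjusted p of 0.05, and the point farthest from 0 is ANKRD1 in S545A against ∆GAG-BG at 0.83, with a standard error of 0.599.

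The 10 genes varied mainly within groups. The share of the variance in log2 level that lay between groups had a median of 13% over the 10 genes and 20.8% over all genes tested. It was highest for WWTR1 (42.0%) and lowest for LATS1 (2.78%). With 3 libraries in each of 4 groups, most of the variance lies within groups on average even where groups do not differ. These shares are therefore descriptive. The range over the 12 libraries had a median of 0.519 on the log2 scale, against 0.641 for all genes tested. YAP1, WWTR1 and LATS1 had ranges wider than only 7.48%, 4.66% and 7.03% of the genes tested, and AMOTL2 one wider than 66.2%. Centred on its own mean, the library pattern of LATS2 was closest among the 10 genes to that of TEAD1 (root mean square difference 0.0728 on the log2 scale over 12 libraries). That of AMOTL1 was closest to TEAD4 (0.0915) and that of YAP1 to WWTR1 (0.0941). Such a difference is also small where both genes vary little. SDs within groups on the log2 scale were 0.0959 for YAP1, 0.0595 for WWTR1, 0.138 for AMOTL1 and 0.107 for TEAD4. The last 2 differences therefore do not show that the genes of a pair moved together. The sets of libraries seen for LATS2 and AMOTL2 were found from the values, and the labels give them no batch, so they were not compared as groups.

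**Figure D4:**
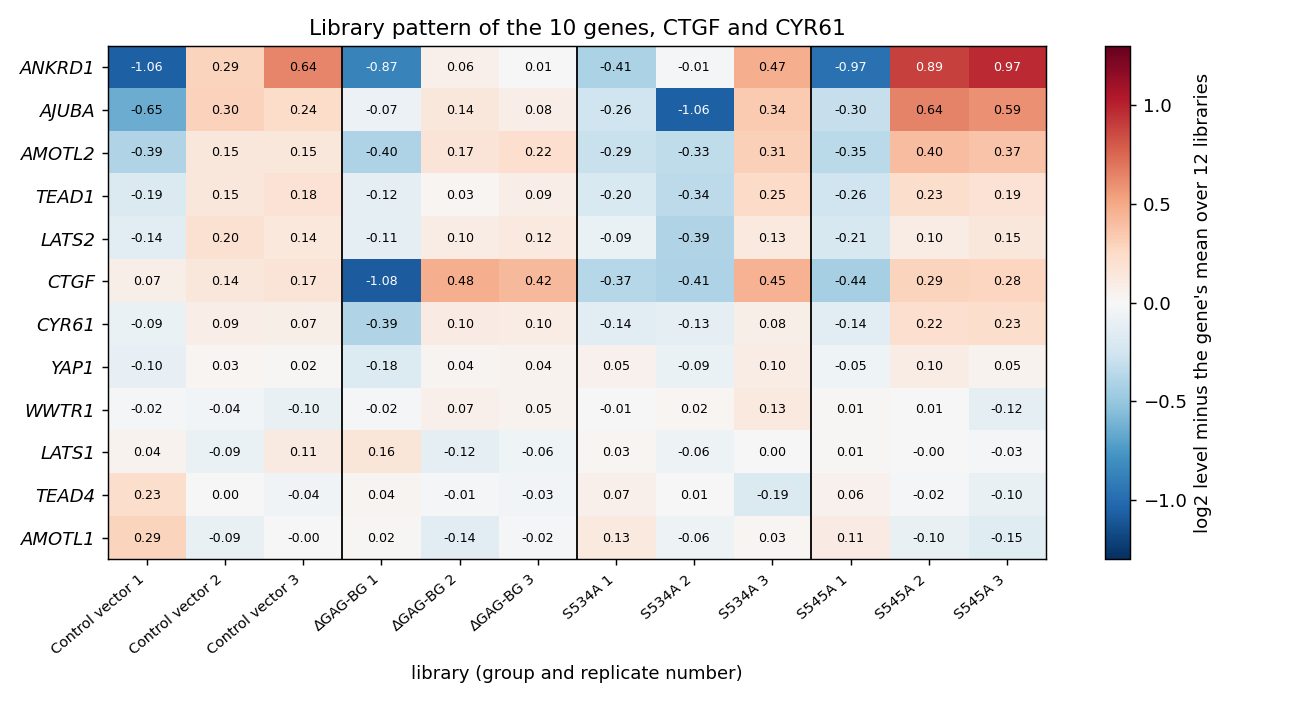
Log2 level of each gene minus its own mean over the 12 libraries (numbers and colour), with libraries in columns by group and replicate number. In ANKRD1, AJUBA, AMOTL2, TEAD1 and LATS2, library 1 of every group lies below the gene's mean and library 3 of every group at or above it, and S534A library 2 is 0.34 below in TEAD1 and 1.06 below in AJUBA.

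CTGF and CYR61 encode the secreted matricellular proteins most often read as YAP targets. CTGF was at 787, 826 and 839 CPM in control vector, 353, 1041 and 1001 in ∆GAG-BG, 577, 564 and 1020 in S534A and 553, 914 and 909 in S545A. Its lowest and highest values were both in ∆GAG-BG, in libraries 1 and 2, and control vector library 1, the lowest library for ANKRD1, was near the middle for CTGF. CYR61 was the more abundant, at 640 CPM per kb against 334 for CTGF, and ranged from 1189 CPM in ∆GAG-BG library 1 to 1830 in S545A library 3. As for ANKRD1, its library 1 was the lowest in each group, and the 5 lowest of its 12 values were those 4 libraries and S534A library 2, at 1189 to 1468 CPM. Neither gene passed an unadjusted p of 0.05 in any comparison.

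Of 28 other genes of the Hippo pathway, 25 were tested and none passed an adjusted p of 0.05. At an unadjusted p of 0.05, TAOK3, a kinase that acts upstream of the LATS kinases, was lower in S534A than in control vector (log2 fold change -0.25, standard error 0.110, unadjusted p = 0.0413, adjusted p = 0.871, edgeR), and none of the 10 genes was among the 3.45% of genes past that p. TAOK3 was at 54.4, 61.3 and 58.3 CPM in control vector and at 51.8, 40.5 and 53.9 in S534A. In S545A against S534A, TAOK3 had a log2 fold change of 0.26 (unadjusted p = 0.0380) and PTPN14, a phosphatase that binds YAP, one of 0.33 (standard error 0.131, unadjusted p = 0.0287, adjusted p = 0.702, edgeR). PTPN14 was at 285, 202 and 302 CPM in S534A and at 303, 359 and 329 in S545A, without overlap. TAOK3 and PTPN14 were the 2 of the 25 genes past an unadjusted p of 0.05 in that comparison, beside 4.78% of all genes tested. Groups did not overlap for 5 of the 25, beside 10.1% of all genes tested. Of these, PTPN14 was higher in S545A, and FAT4, WWC1, WTIP and TEAD2 were lower. In S534A against control vector 4 of the 25 did not overlap (PTPN14, MAP4K4, WWC2 and TAOK3, all lower), beside 7.65% of all genes tested. In each remaining comparison 1 of the 25 did not overlap, beside 4.87% to 8.82% of all genes tested. The median log2 fold change of the 25 genes lay between -0.0301 and -0.000976 over the 6 comparisons. S534A library 2 was the lowest of the 12 for both TAOK3 and PTPN14. Without that library 0 of the 25 genes passed an unadjusted p of 0.05 in S534A against control vector or in S545A against S534A. Without S534A library 3, 5 passed in S534A against control vector. The count over all genes tested moved as well, from 554 with all libraries to 206 without S534A library 2 and 1953 without S534A library 3 in that comparison, and from 768 to 285 without S534A library 2 in S545A against S534A.

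Of 18 known YAP target genes, all were tested and none passed an adjusted p of 0.05. In each of S534A against control vector, S534A against ∆GAG-BG and S545A against S534A, 2 of the 18 passed an unadjusted p of 0.05, beside 3.45%, 2.99% and 4.78% of all genes tested, and IGFBP3 was 1 of them each time. IGFBP3, a secreted binding protein of insulin-like growth factors, was at 28.6, 153 and 18.2 CPM in S534A and at 14.2 to 31.1 CPM in the other 9 libraries, so its log2 fold change of 1.72 in S534A against control vector (standard error 0.658, unadjusted p = 0.0236, adjusted p = 0.871, edgeR) turned on S534A library 2. CCDC80, an extracellular matrix protein, was at 434 CPM in that library and at 149 to 235 in the others, with a log2 fold change of 0.58 in the same comparison (unadjusted p = 0.0415, adjusted p = 0.871, edgeR). NUAK2, a kinase of the AMPK family, was at 4.84, 4.11 and 7.52 CPM in S534A and 5.35, 11.6 and 10.8 in S545A (log2 fold change 0.77, standard error 0.302, unadjusted p = 0.0261, adjusted p = 0.702, edgeR). TGFB2, a ligand gene with at most 1.13 CPM in any library that was named after its values were seen, was the other target past an unadjusted p of 0.05, in S534A against ∆GAG-BG (log2 fold change -0.94, unadjusted p = 0.0421, adjusted p = 0.890, edgeR). Without S534A library 2, none of the 18 targets passed in any of the 3 comparisons that use S534A. In S545A against S534A, 6 passed without S545A library 1, where the count over all genes tested was 1945 (12%) in place of 768. The median log2 fold change of the targets ran from -0.0873 in S534A against ∆GAG-BG to 0.145 in S545A against S534A.

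The genes whose library pattern was most like those of the 3 widest ranging genes were found by the smallest root mean square difference between centred log2 levels over the 12 libraries. For AMOTL2 these were ARHGAP23 (0.0606), PDGFB (0.0656) and IGFBP6 (0.0673), and for AJUBA RP3-331H24.7 (0.0575), PAK3 (0.116) and SHISA9 (0.116). For ANKRD1 the nearest genes were farther, CTC-308K20.1 at 0.209, DUSP1 at 0.260 and RP11-400K9.4 at 0.309. DUSP1, an immediate early phosphatase of MAP kinases, was at 164 to 189 CPM in library 1 of the groups, 218 in S534A library 2 and 328 to 435 in the other libraries. These values describe patterns and were not tested.

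Some counts could be shared with overlapping annotation. YAP1, WWTR1, LATS1 and AMOTL1 share exon bases with genes on the opposite strand that held at most 16 counts per library, and AMOTL2 and AJUBA with genes on the same strand that held at most 8. Whether counting used strand is not given in the sources used here.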

How the data were processed

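RNA of 12 HEYA8 libraries was sequenced as paired reads after a directional library preparation. The authors deposited raw counts per gene, without normalization. Per the labels, reads were checked with FastQC, trimmed with Trim Galore 0.4.5, aligned with STAR 2.4, handled with SAMtools 1.2 and counted with featureCounts. The submitters' processing notes name the mouse builds mm10 and GRCm38, although the cells are human. The deposited coordinates equal those of GENCODE release 29 (GRCh38) for 33590 of 36023 genes with 1 entry of that symbol there. The annotation release and the strand setting are not given in the sources used here. All 37 mitochondrial genes hold 0 counts.

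The 10 genes, the list of 28 other Hippo genes and the list of 18 targets were chosen with earlier results of these data known. CCN1 and CCN2 were matched to CYR61 and CTGF. The filter was filterByExpr (at least 10 counts) and the scaling TMM. All 12 libraries entered 1 quasi-likelihood model of edgeR 4.0.16 (R 4.3.3), which left 8 residual degrees of freedom, with Benjamini-Hochberg adjustment over 16069 genes. The code was tested on simulated data. The two-sided exact permutation test compared mean log2(CPM + 0.5) of a pair of groups over 20 splits. Named besides the 10 were TGFBR3, CTGF, CYR61, TEAD2, TEAD3, AMOT, in each list up to 3 genes with the smallest unadjusted p under 0.05, and for the 3 genes of widest range the 3 nearest library patterns.

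The text of the series calls the replicates biological. Same-numbered libraries of S545A and control vector deviated together from their group means (correlations 0.60, 0.30 and 0.29). Neither the edgeR model of all libraries nor the exact test used this pairing. The replicate number entered only as a block in an alternative fit, for every comparison. Alternatives were DESeq2 1.42.0, limma-voom (limma 3.58.1), RLE factors, library size only, no filter, at least 10 counts in every library, only the groups compared, the replicate block, each library left out, and libraries 2 and 3 summed.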

Additional observations from a re-analysis of the deposited data

How the results depend on the processing

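In none of the alternatives run did any of the 10 genes pass an adjusted p of 0.05, and the lowest adjusted p that any of them reached was 0.305. Of 540 values recomputed under the other settings, 523 kept the sign and 1 passed an unadjusted p of 0.05. Of 360 values recomputed with a library left out, 291 kept the sign and 3 passed. Depth limited ANKRD1 most, with 33 to 194 counts per library. Which of the libraries labelled ∆GAG-BG and control vector carry which construct cannot be settled from the counts, and each direction drawn from them keeps that limit.

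Over all genes, where edgeR called 0, DESeq2 called 2 past an adjusted p of 0.05 in S534A against control vector, 5 against ∆GAG-BG and 1 in S545A against S534A, and limma-voom and the fit with no filter called 1 in each of these. The signs that changed belonged to values near 0. AMOTL1 in S545A against ∆GAG-BG was 0.0010 and became -0.00073 with DESeq2, -0.0020 with limma-voom, -0.00072 with RLE factors and -0.0023 with the replicate block. ANKRD1 in S534A against control vector became 0.096 with limma-voom, 0.078 with the replicate block and 0.12 with libraries 2 and 3 summed, which also turned AMOTL2 there to 0.017, TEAD1 in S545A against control vector to -0.012 and YAP1 in S545A against S534A to -0.011. With library size alone LATS1 was, against ∆GAG-BG, 0.015 in S534A and 0.0081 in S545A and was -0.0068 in S545A against S534A, and YAP1 was -0.00046 in the last. With no filter LATS1 was 0.00029 in S534A against ∆GAG-BG and -0.0039 in S545A against S534A, and TEAD1 was -0.0020 in S545A against control vector. The cause of these changes was not tested.

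Leaving out 1 library at a time, log2 fold changes crossed 0 for the following genes. In ∆GAG-BG against control vector they ran for YAP1 from -0.053 to 0.051, TEAD1 -0.17 to 0.012, TEAD4 -0.12 to 0.019, LATS1 -0.12 to 0.026, LATS2 -0.13 to 0.035, AMOTL1 -0.20 to 0.0018, AMOTL2 -0.13 to 0.20, AJUBA -0.22 to 0.19 and ANKRD1 -0.79 to 0.054. In S534A against control vector they ran for YAP1 from -0.0016 to 0.090, LATS1 -0.091 to 0.011, AMOTL1 -0.12 to 0.080, AMOTL2 -0.30 to 0.046, AJUBA -0.63 to 0.046 and ANKRD1 -0.49 to 0.35. In S545A against control vector they ran for WWTR1 from -0.0032 to 0.061, TEAD1 -0.10 to 0.15, TEAD4 -0.14 to 0.0014, LATS1 -0.086 to 0.015, LATS2 -0.15 to 0.053 and AMOTL1 -0.20 to 0.0028. In S534A against ∆GAG-BG they ran for YAP1 from -0.014 to 0.11, WWTR1 -0.018 to 0.045, TEAD1 -0.26 to 0.045, TEAD4 -0.085 to 0.043, LATS1 -0.064 to 0.081, AMOTL2 -0.33 to 0.018 and AJUBA -0.65 to 0.019. In S545A against ∆GAG-BG they ran for YAP1 from -0.0024 to 0.11, TEAD1 -0.013 to 0.21, TEAD4 -0.051 to 0.022, LATS1 -0.057 to 0.087, LATS2 -0.086 to 0.092, AMOTL1 -0.076 to 0.054 and AMOTL2 -0.0071 to 0.37. In S545A against S534A they ran for YAP1 from -0.038 to 0.056, TEAD4 -0.056 to 0.074 and LATS1 -0.020 to 0.031. Over left-out libraries, the count of other Hippo genes past an unadjusted p of 0.05 ran from 0 to 5 and that of the targets from 0 to 6, while the count over all genes ran from 206 to 1953 in S534A against control vector, 312 to 1800 in S534A against ∆GAG-BG and 273 to 2633 in S545A against S534A.

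With the replicate number as a block, ANKRD1 in S545A against ∆GAG-BG (0.70) was the 1 value past an unadjusted p of 0.05, and no value of the 10 genes passed an adjusted p of 0.05. Only in S545A against control vector did the correlations of same-numbered libraries all exceed 0.1. In the other comparisons they do not settle whether the numbers mark pairs. Some same-numbered libraries of different groups were close. Chi-square divided by its degrees of freedom was 3.87 for library 1 of S534A and S545A and 4.32 for library 3 of S534A and control vector. It was 97.5 for library 2 of S534A and S545A and 70 for library 1 of ∆GAG-BG and control vector.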
